A study of Mus musculus with 9 samples.

Results

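The neural miRNAs mmu-miR-9-5p, mmu-miR-9-3p, mmu-miR-124-3p, mmu-miR-128-3p and mmu-miR-137-3p were followed in whole mouse kidneys. They were chosen by exact name, and they are 5 of the 1607 known mouse miRNA names with reads in the small RNA libraries. The kidneys came from embryos at embryonic day 16.5, in 3 groups of 3 libraries: DROSHA knockout, DROSHA-E1147K transgene and wild-type control. The mouse lines, the Cre driver or promoter behind each genotype, and the number of animals per library are not given in the sources used. The p-values therefore set differences between groups only against the spread between libraries of a group, and that spread may be technical. Both DROSHA groups were set against the same 3 controls. Only small RNA was counted, so Drosha mRNA gave no check of the genotype labels.

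DROSHA is the nuclear enzyme that cuts primary transcripts into miRNA hairpins, and DICER then cuts each hairpin into a 5p and a 3p arm. A mature arm guides Argonaute to target transcripts, mainly through its seed, bases 2 to 8. miR-9 is made in neural progenitors and neurons and acts on their proliferation and differentiation. miR-124 is the best known miRNA of differentiated neurons, where it lowers transcripts typical of other cells, among them Ptbp1. miR-128 is enriched in neurons and limits their excitability in mice. miR-137 acts in neuronal maturation and has Ezh2 among its targets. The fetal kidney is reached by growing nerve fibres, while none of these miRNAs is a usual marker of nephron or ureteric epithelium.

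The mature sequences show which reads a name can hold and whether names share a seed. They are printed 5′ to 3′ from RefSeq (GRCm38.p6), with the seed in capitals, for the 4 of 5 names that matched, all but miR-124-3p.

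miR-9-5p: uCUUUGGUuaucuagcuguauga

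miR-9-3p: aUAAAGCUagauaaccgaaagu

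miR-128-3p: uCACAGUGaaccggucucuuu

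miR-137-3p: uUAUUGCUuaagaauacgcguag

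None of these 4 seeds was shared with another of the 1679 mature mouse names in the RefSeq table. Both arms of miR-9 are identical in its 3 hairpins, so reads could not be assigned to 1 of them. In GRCm38.p6 these lie on the plus strand at chr3:88215598-88215686 in an intron of the lincRNA Gm3764, at chr13:83738814-83738885 in an exon of the lincRNA C130071C03Rik, and at chr7:79505264-79505353 in an intron of Mir9-3hg. The antisense miRNA annotation Gm25641 overlaps the first of them. miR-137 has 1 hairpin at chr3:118433857-118433929 on the plus strand, in an exon of the processed transcript Gm26871. The 3 miR-124 hairpins lie on chromosomes 14, 3 and 2 in exons of the lincRNAs Mir124a-1hg, Mir124-2hg and Gm27032.

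miR-128 has 2 hairpins with the same 3p arm but different 5p arms, so its 5p reads separate the loci. Mir128-1 lies at chr1:128202361-128202430 on the plus strand in an intron of R3hdm1. Mir128-2 lies at chr9:112118636-112118711 on the minus strand in an intron of Arpp21, the gene of a phosphoprotein of neurons that responds to cyclic AMP. The 5p arms share the seed GGGGCCG. Both hairpins are shown with both mature arms in capitals.

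Mir128-1: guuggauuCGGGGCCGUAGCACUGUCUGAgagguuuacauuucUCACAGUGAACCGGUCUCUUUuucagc

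Mir128-2: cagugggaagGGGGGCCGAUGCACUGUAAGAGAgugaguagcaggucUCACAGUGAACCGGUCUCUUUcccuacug

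Known miRNAs had 24350500 to 34896599 reads per library. Levels are given in CPM, that is counts per 1000000 miRNA reads after TMM scaling. All 5 names were present in every library and all passed the filter on low counts, as did 955 names in all. For the label kidney, 9 tubule names (miR-192, miR-194, miR-215, miR-204 and the miR-200 family) were looked at, and all 9 had reads in every library. So did all 5 erythroid, 5 leukocyte and 5 endocrine and liver names, so reads alone cannot check the tissue. The 9 together came to 14853 to 33197 CPM in knockout, 25709 to 37047 CPM in transgene and 39610 to 44551 CPM in control libraries. The lowest of these sums was that of knockout library 3.

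No neural name was called different by edgeR at an adjusted p of 0.05 in any of the 3 genotype comparisons, a threshold that 0.0%, 0.0% and 0.105% of all tested miRNAs passed in knockout against control, transgene against control and knockout against transgene. miR-9-5p had the most reads of the 5 on average, with a 4.33-fold range over the 9 libraries. miR-9-3p and miR-128-3p varied 2.14-fold and 2.25-fold. miR-124-3p and miR-137-3p varied 37.3-fold and 44.0-fold between the highest and the lowest of the 9 libraries. Each group had 1 library that was high in both, namely knockout 3, transgene 2 and control 1.

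Counted over the 5 members, 0 passed an edgeR adjusted p of 0.05 in knockout against control, where 0.0% of all 955 miRNAs did. At an unadjusted p under 0.05 the count was also 0, against 25.7% of all (15.6% higher, 10.1% lower), and by DESeq2 it was 0, against 11.8% of all. No member had groups without overlap, against 12.9% of all that lay entirely higher and 15.6% entirely lower. In transgene against control the 4 counts were 0 again, against 0.0% of all by edgeR, 8.8% unadjusted (5.24% higher, 3.56% lower), 0.419% by DESeq2, and 11.9% higher and 12.0% lower without overlap. In knockout against transgene they were 0, against 0.105% by edgeR, 7.02% unadjusted (3.46% higher, 3.56% lower), 0.314% by DESeq2, and 4.4% higher and 5.97% lower without overlap. The median log2 fold change of the 5 was 0.24 in knockout over control, -0.072 in transgene over control and 0.57 in knockout over transgene, beside -0.025, -0.039 and 0.049 over all miRNAs tested. With 5 names the median is the value of 1 of them, and in both knockout comparisons that was miR-128-3p. Without knockout 3 the value of miR-128-3p was 0.033 over control and 0.30 over transgene. A p that misses the threshold does not show that levels were equal, and for miR-124-3p and miR-137-3p the intervals were wide.

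miR-9-5p stood at 1765, 1709 and 668 CPM in knockout libraries 1, 2 and 3, at 2889, 1738 and 1579 CPM in transgene libraries, and at 2319, 2489 and 1715 CPM in control libraries. Knockout 3 was the lowest of the 9, and the groups overlapped in all 3 comparisons. In that library miR-9-5p ranked 138 by reads among all miRNA names, against ranks 51 to 79 in the other 8. The means were 1381 ± 618 CPM in knockout, 2069 ± 715 CPM in transgene and 2174 ± 406 CPM in control (SD, n = 3 each). The fitted log2 fold change of knockout over control was -0.66, with a standard error of 0.39 and a 95% interval of -1.55 to 0.24 (edgeR adjusted p = 0.338). Without knockout 3 it was -0.22. For transgene over control it was -0.072 ± 0.39 (SE, edgeR adjusted p = 0.968), and 0.11 on total miRNA counts. For knockout over transgene it was -0.58 ± 0.39 (SE, edgeR adjusted p = 0.707), and -0.23 without either knockout 3 or transgene 1.

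miR-9-3p, the less abundant arm, stood at 30.1, 17.2 and 19.4 CPM in knockout, 34.5, 30.5 and 28.5 CPM in transgene, and 28.9, 36.8 and 20.8 CPM in control libraries. The highest library exceeded the lowest 2.14-fold, and all groups overlapped. Its log2 fold change was -0.37 ± 0.31 (SE) for knockout over control, 0.11 ± 0.31 for transgene over control and -0.49 ± 0.31 for knockout over transgene, with edgeR adjusted p of 0.489, 0.941 and 0.697. With 1 library left out the first ran from -0.61 to -0.19 (without knockout 1 and without knockout 3) and the third from -0.80 to -0.32 (without knockout 1 and without knockout 2).

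The ratio of the miR-9 arms does not depend on library size. It was 58.5, 99.3 and 34.5 miR-9-5p reads per miR-9-3p read in knockout, 83.8, 57.1 and 55.4 in transgene, and 80.2, 67.5 and 82.7 in control libraries. The knockout libraries held both the highest and the lowest of the 9 ratios. The mean log2 ratio differed by -0.39 between knockout and control (exact permutation test, two-sided p = 0.6), by -0.25 between transgene and control (p = 0.4) and by -0.14 between knockout and transgene (p = 1.0). The difference between knockout and control was -0.0059 without knockout 3 and -0.77 without knockout 2. Adjusted over the 3 comparisons these exact p-values were 0.9, 0.9 and 1.0. With 3 libraries against 3 this permutation test cannot go below p = 0.1.

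miR-124-3p stood at 43.7, 63.7 and 915 CPM in knockout, at 144, 436 and 71.2 CPM in transgene, and at 669, 44.1 and 24.5 CPM in control libraries. These values rest on 1294, 1566 and 25269 reads in knockout, 3978, 14153 and 2069 reads in transgene, and 21293, 1059 and 667 reads in control libraries. The spread lay inside each group: the highest library exceeded the lowest 20.9-fold in knockout, 6.12-fold in transgene and 27.3-fold in control. The means were 341 ± 497 CPM in knockout, 217 ± 193 CPM in transgene and 246 ± 366 CPM in control (SD, n = 3 each). The log2 fold change of knockout over control was 0.47 ± 1.46 (SE), with a 95% interval of -2.84 to 3.78 and an edgeR adjusted p of 0.855. In linear terms the interval ran from 0.140-fold to 13.7-fold, so the data exclude neither a lower nor a higher level in knockout within those bounds.

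Single libraries set the direction for miR-124-3p. Without knockout 3 the log2 fold change of knockout over control was -2.11, without control 1 it was 3.27, and without control 2 or control 3 it was -0.071 and -0.11. For transgene over control it was -0.18 ± 1.45 (SE, edgeR adjusted p = 0.973), with 2.60 without control 1, 0.29 without transgene 3 and 0.068 on total miRNA counts. For knockout over transgene it was 0.65 ± 1.46 (SE, edgeR adjusted p = 0.885), and -1.98 without knockout 3.

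miR-137-3p followed the same libraries at a lower level. It stood at 5.03, 10.9 and 175 CPM in knockout, at 30.9, 75.4 and 10.7 CPM in transgene, and at 65.0, 5.79 and 3.97 CPM in control libraries. Knockout 3, transgene 2 and control 1 were again the highest of their groups, and the groups overlapped. The log2 fold change of knockout over control was 1.35 ± 1.47 (SE), with a 95% interval of -1.98 to 4.68 and an edgeR adjusted p of 0.609. It was -1.56 without knockout 3 and 3.65 without control 1. For transgene over control it was 0.64 ± 1.45 (SE, edgeR adjusted p = 0.911), with 2.94 without control 1 and -0.20 without transgene 2. For knockout over transgene it was 0.70 ± 1.45 (SE, edgeR adjusted p = 0.869), and -2.26 without knockout 3.

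**Figure D1:**
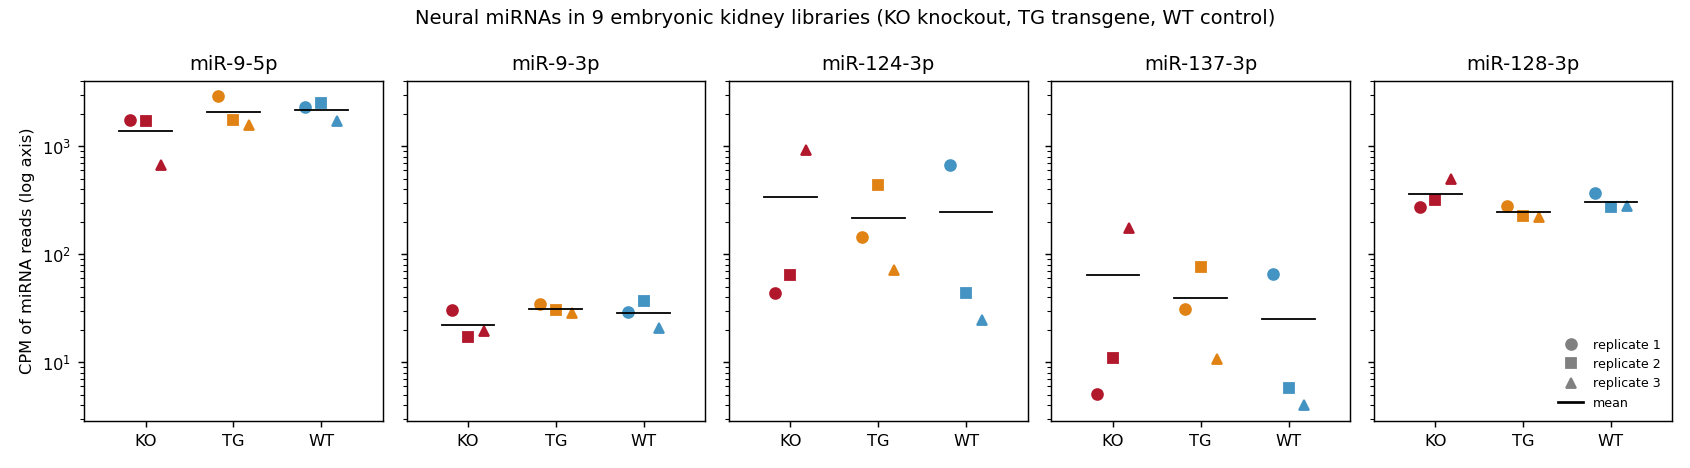
Level of each neural miRNA in CPM of miRNA reads on a log axis, for knockout (KO), transgene (TG) and control (WT) libraries, with 1 marker per library, its shape giving the replicate number, and a line at the group mean. miR-124-3p and miR-137-3p each had 1 high library per group (915, 436 and 669 CPM for miR-124-3p in knockout 3, transgene 2 and control 1), while miR-9 and miR-128-3p stayed within 4.33-fold over the 9 libraries.

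**Figure D2:**
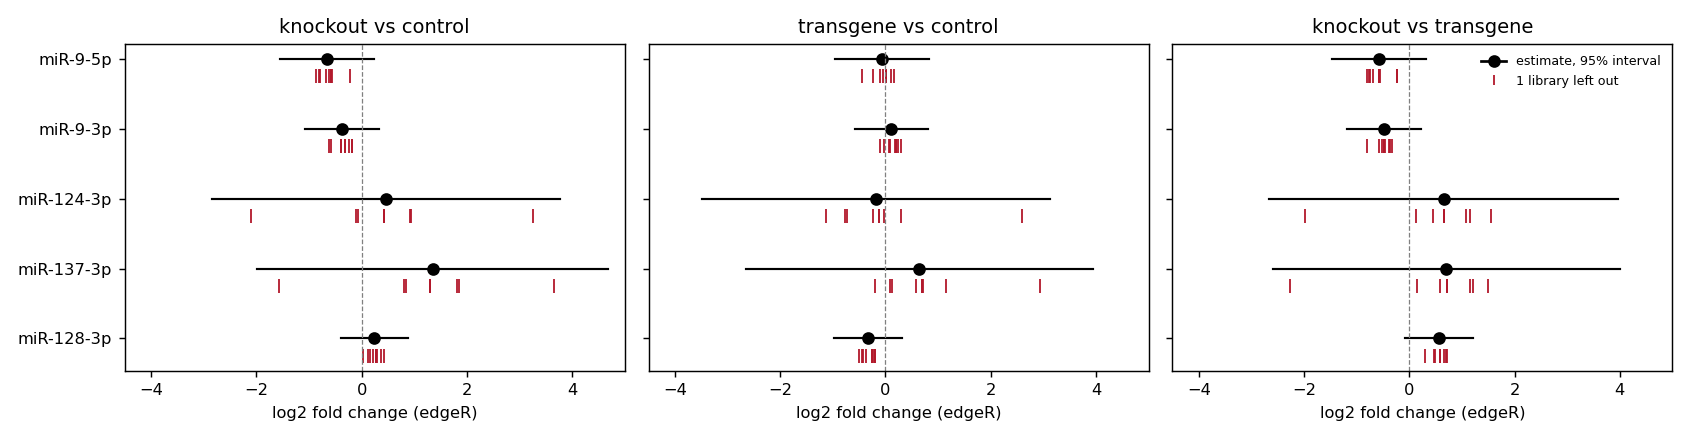
Log2 fold change of each neural miRNA in the 3 comparisons, with its 95% interval (edgeR) in black and, in red, the estimates with 1 of the 9 libraries left out. The intervals of miR-124-3p and miR-137-3p extend over 3 log2 units to either side of the estimate, and their red marks cross 0 when knockout 3 is left out of knockout against control (-2.11 and -1.56).

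The ratio of miR-124-3p to miR-137-3p varied less than either level, at 4.66 to 10.3 miR-124-3p reads per miR-137-3p read over the 9 libraries. Among the 464 other miRNAs with a mean of at least 10 CPM, miR-137-3p was the nearest to miR-124-3p in pattern over the 9 libraries, with a root mean square difference of 0.34 on the centred log2 scale. The median over all 464 was 1.84. The next were miR-138-5p at 0.83, a miRNA of neuronal dendrites, and miR-486b-5p at 1.14, an erythroid name. miR-486a-5p was counted as a name of its own, and how reads matching both names were divided is not stated. For miR-137-3p, miR-138-5p and miR-486b-5p likewise followed miR-124-3p. Of the 955 tested names, 20 (2.09%) had knockout 3, transgene 2 and control 1 as their 3 highest libraries, a count made after these values were seen. These 3 libraries are the highest for miR-124-3p, so its own place among the 20 was given. The 20 also held miR-137-3p and 4 of 17 tested other neuronal and glial names: miR-137-5p, miR-128-2-5p, miR-138-5p and miR-488-3p. Of these, miR-137-5p and miR-128-2-5p are the other arms of hairpins that give members, and both had few reads. They held 1 of 4 tested endocrine and liver names as well, miR-216a-5p. No tested kidney tubule, striated muscle, erythroid or leukocyte name was among them. Most of the 20 belonged to none of these lists.

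Of the 464 names ordered by closeness to miR-9-5p, miR-124-3p stood at rank 448, with a difference of 2.08. This measure grows with the spread of a name, so the rank partly restates the wide spread of miR-124-3p, which stood at rank 446 for miR-9-3p. In knockout 3 the centred log2 CPM was -1.39 for miR-9-5p, its lowest, and 2.85 for miR-124-3p, its highest. The number of miR-124-3p reads per miR-9-5p read was 0.0248, 0.0373 and 1.37 in knockout, 0.0499, 0.251 and 0.0451 in transgene, and 0.288, 0.0177 and 0.0143 in control libraries. Knockout 3 was the library in which miR-124-3p exceeded miR-9-5p. The names nearest to miR-9-5p in pattern were miR-615-5p at 0.16, miR-98-5p at 0.19 and miR-363-3p at 0.19. Its own other arm stood 74th, at 0.43. Those nearest to miR-9-3p were miR-877-5p, miR-669d-5p and miR-669l-5p, at 0.25 to 0.28.

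The spread within groups placed the members far apart. The pooled within-group SD of log2 CPM was 2.15 for both miR-124-3p and miR-137-3p, ranks 11 and 12 from the most variable of 465 names. It was 0.56 for miR-9-5p, 0.35 for miR-9-3p and 0.32 for miR-128-3p, against a median of 0.41 over the 465. These ranks describe the 9 libraries and were not tested.

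**Figure D3:**
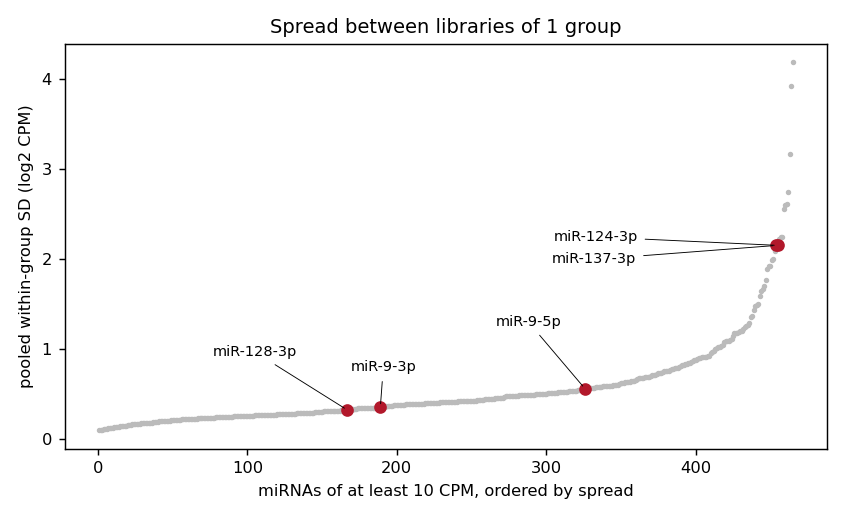
Pooled within-group standard deviation of log2 CPM for the 465 miRNAs with a mean of at least 10 CPM, ordered from the least to the most variable along the horizontal axis, with the 5 neural names in red. miR-124-3p and miR-137-3p lie together at 2.15, near the variable end, and the other 3 names lie between 0.32 and 0.56.

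miR-128-3p stood at 273, 315 and 501 CPM in knockout, at 282, 228 and 223 CPM in transgene, and at 372, 271 and 277 CPM in control libraries. Knockout 3 was the highest, and the highest exceeded the lowest 2.25-fold. The log2 fold change was 0.24 ± 0.28 (SE) for knockout over control, -0.33 ± 0.28 for transgene over control and 0.57 ± 0.28 for knockout over transgene, with edgeR adjusted p of 0.631, 0.705 and 0.653. The last had a 95% interval of -0.073 to 1.22, which includes 0. Without knockout 3 the log2 fold change was 0.033 for knockout over control and 0.30 for knockout over transgene. With any 1 library left out these ranged up to 0.43 and 0.71, and transgene over control ran from -0.50 to -0.20. The names nearest to miR-128-3p in pattern were miR-23a-3p, miR-224-5p and miR-350-3p, at 0.19 to 0.20.

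The 5p arms separated the 2 miR-128 hairpins drawn above, and in every library Mir128-1 gave more 5p reads than Mir128-2. miR-128-1-5p had 160, 164 and 85 reads in knockout, 182, 187 and 181 reads in transgene, and 206, 163 and 132 reads in control libraries. miR-128-2-5p, from the Arpp21 intron, had 10, 4 and 40 reads in knockout, 5, 18 and 5 reads in transgene, and 15, 1 and 7 reads in control libraries. Its share of both 5p arms was 32.0% in knockout 3 (exact Clopper-Pearson 95% interval 23.9% to 40.9%). In the other 8 libraries the share was 0.610% to 8.78%, and the highest upper bound among them was 13.5%. These intervals cover counting error within a library only, not differences between libraries. No molecular identifiers were used, so copies of the same molecule would make them too narrow.

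**Figure D4:**
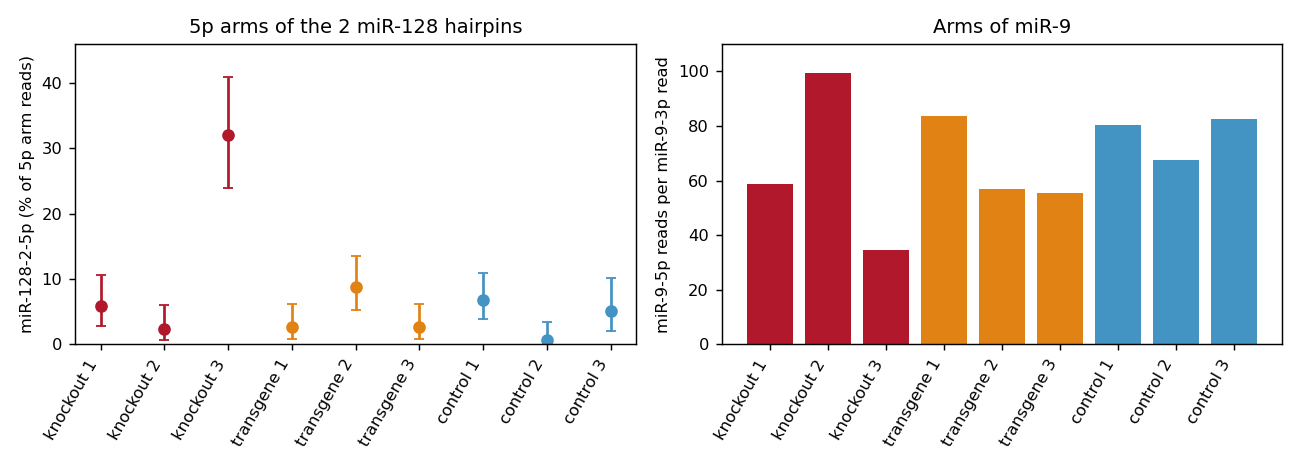
Left, reads of miR-128-2-5p as a percentage of both miR-128 5p arms in each library, with exact 95% binomial intervals; right, miR-9-5p reads per miR-9-3p read in each library, as bars from 0. Knockout 3 stands apart on the left at 32.0%, and has the lowest bar on the right at 34.5.

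The passenger arms were rare. miR-137-5p had 0, 1 and 55 reads in knockout, 4, 21 and 4 reads in transgene, and 15, 1 and 0 reads in control libraries. miR-124-5p had 4, 0 and 46 reads in knockout, 5, 14 and 1 reads in transgene, and 5, 3 and 2 reads in control libraries. For miR-137-5p the order again had knockout 3, transgene 2 and control 1 on top.

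Reads that the authors assigned to Rfam hairpin families were listed apart from the mature names. Whether a read could count under both is not stated, so they are not known to be an independent count. The mir-124 family had 12.1, 18.2 and 258 reads per 1000000 TMM-scaled miRNA reads in knockout, 37.6, 109 and 17.2 in transgene, and 146, 12.6 and 6.59 in control libraries. Per 100 mature reads of the same miRNA, the mir-124 family held 21.8 to 28.5 reads, the mir-128 family 9.06 to 10.7 and the mir-9 family 2.78 to 4.67. The mir-9 family had its lowest level in knockout 3, at 32.1 per 1000000, where its number per 100 mature reads was the highest. The mir-137 family was listed in every library but knockout 1, at 3.50 to 102 per 1000000, with the highest level in knockout 3. It held 33.1 to 88.0 reads per 100 mature reads and so did not keep to 1 ratio. The number was lowest in the libraries with most miR-137-3p, at 57.8 in knockout 3, 49.0 in transgene 2 and 33.1 in control 1.

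The other neuronal and glial names formed a list of 21, of which 17 were tested. In knockout against control 11 had a positive and 6 a negative log2 fold change, with a median of 0.59, and 0 were called. At an unadjusted p under 0.05, 4 were higher (miR-153-3p, miR-344-3p, miR-7a-5p and miR-7b-5p) and 1 was lower (miR-132-3p), beside 15.6% higher and 10.1% lower of all tested. In transgene against control 9 were positive and 8 negative, with a median of 0.036 and 0 called. At an unadjusted p under 0.05, 1 was higher (miR-7b-5p) and 1 lower (miR-132-3p), beside 5.24% and 3.56% of all tested. In knockout against transgene 13 were positive and 4 negative, with a median of 0.69, 0 called and 0 past the unadjusted threshold in either direction, beside 3.46% higher and 3.56% lower of all tested. Knockout 3 was the highest library for 11 of the 17 (64.7%) and for 3 of the 5 members, beside 24.8% of all 955 miRNAs. The same held for some lists outside the neural names. Knockout 3 was the highest library for 6 of 6 tested striated muscle names, 4 of 5 erythroid names and 3 of 5 leukocyte names. It was highest for 0 of 9 kidney tubule names and 0 of 4 tested endocrine and liver names. Knockout 3 was also the lowest library for 22.7% of all 955 miRNAs, beside 2 of the 17 and 1 of the 5 members.

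miR-138-5p stood at 304, 292 and 1856 CPM in knockout, 341, 812 and 371 CPM in transgene, and 1166, 253 and 205 CPM in control libraries. miR-129-5p, a neuronal name, was high in knockout 3 and in no other library: 14.5, 21.2 and 191 CPM in knockout, 29.9, 36.2 and 25.1 CPM in transgene, and 28.5, 27.3 and 37.0 CPM in control libraries. miR-153-3p, which acts on synaptic vesicle release, showed 13.7, 8.51 and 120 CPM in knockout, 17.0, 27.7 and 29.7 CPM in transgene, and 11.1, 6.54 and 11.0 CPM in control libraries. Control 1 and transgene 2, high in miR-124-3p and miR-138-5p, were thus at the level of the rest of the libraries for miR-129-5p. miR-218-5p, a miRNA of motor neurons, was by far the most abundant of the list, at 7475 to 13766 CPM in knockout, 12162 to 14507 CPM in transgene and 10158 to 19427 CPM in control libraries.

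miR-7b-5p, a miRNA of neurons and hormone-secreting cells, had the largest fitted change of the list and an order of its own. It stood at 13.8, 552 and 2940 CPM in knockout, 629, 595 and 105 CPM in transgene, and 45.0, 11.5 and 4.67 CPM in control libraries. Knockout 1 lay within the range of the controls, and the log2 fold change was 5.84 ± 1.75 (SE) for knockout over control and 4.44 ± 1.64 for transgene over control, with edgeR adjusted p of 0.109 and 0.529. miR-132-3p, which neuronal activity induces, stood at 21.3, 19.2 and 28.3 CPM in knockout, 18.1, 20.6 and 20.5 CPM in transgene, and 47.6, 29.0 and 62.0 CPM in control libraries. Neither DROSHA group overlapped the controls, as for 15.6% of all miRNAs entirely lower in knockout and 12.0% in transgene, with a log2 fold change of -1.01 ± 0.31 (SE) for knockout and -1.23 ± 0.32 for transgene, and edgeR adjusted p of 0.119 and 0.458. In knockout against control it was the only name of the 17 without overlap. In transgene against control 4 of the 17 lay entirely higher (miR-7a-5p, miR-7b-5p, miR-153-3p and miR-344-3p), beside 11.9% of all, and 2 entirely lower (miR-132-3p and miR-212-3p), beside 12.0%. In knockout against transgene 0 lay entirely higher, beside 4.4%, and 1 entirely lower (miR-383-5p), beside 5.97%.

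The rest of the list with a mean of at least 10 CPM did not follow 1 order. miR-7a-5p stood at 925, 4473 and 12653 CPM in knockout, 5270, 4276 and 2502 CPM in transgene, and 2069, 1241 and 1136 CPM in control libraries, and miR-344-3p at 37.2, 56.9 and 228 CPM in knockout, 71.1, 72.4 and 42.2 CPM in transgene, and 38.8, 38.5 and 40.2 CPM in control libraries. Knockout 3 was highest for both. It was also highest for miR-488-3p at 27.1 CPM. For miR-219a-5p, of oligodendrocytes, knockout 3 led narrowly, at 19.9 CPM beside 18.1 CPM in knockout 1 and 17.0 CPM in transgene 2. miR-212-3p, from the same transcript as miR-132, stood at 171, 155 and 94.9 CPM in knockout, 127, 107 and 130 CPM in transgene, and 178, 163 and 176 CPM in control libraries, with knockout 3 the lowest. miR-383-5p and miR-384-5p were highest in control 2 and control 1, at 242 and 138 CPM, against 98.5 and 55.7 CPM in knockout 3.

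**Figure D5:**
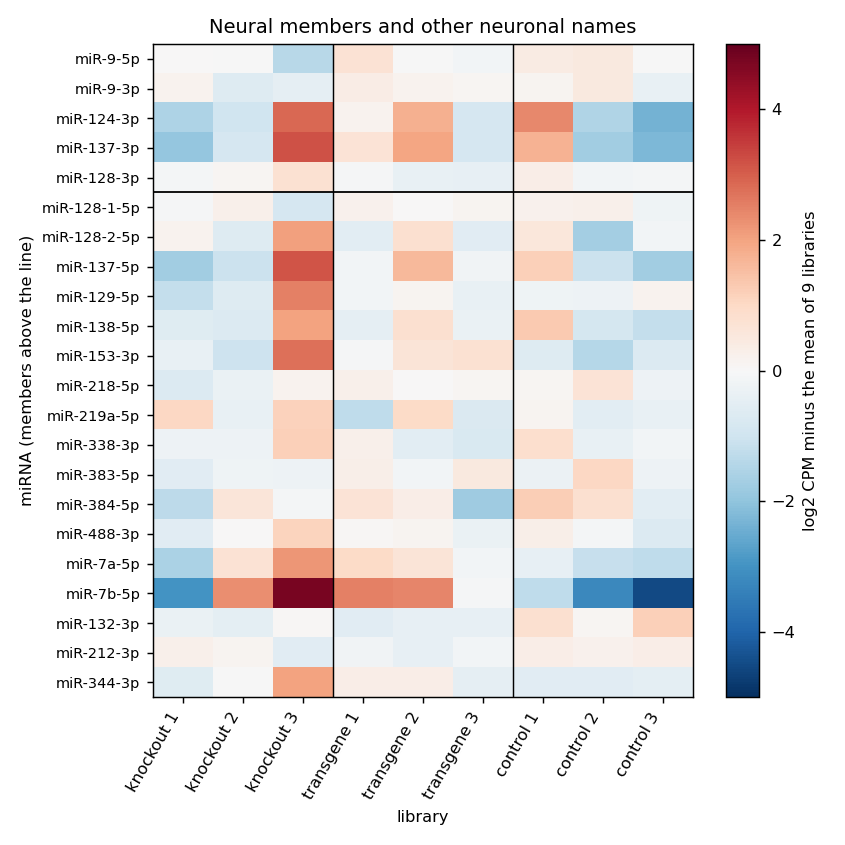
Log2 CPM minus the mean of the 9 libraries, as colour (red above, blue below), for the 5 neural names, above the line, and the 17 tested names of the other neuronal and glial list, with knockout, transgene and control libraries from left to right. Knockout 3 is the highest library for 11 of the 17, while transgene 2 and control 1 lie above the mean with it for miR-124-3p, miR-137-3p and miR-138-5p.

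Markers of other tissues moved with some of these libraries. The 7 striated muscle names came to 2073, 458 and 10513 CPM in knockout, 1641, 826 and 468 CPM in transgene, and 1254, 287 and 221 CPM in control libraries, so knockout 3 was the highest here as well. Of the 7, miR-208a-3p had 0 reads in knockout 1, control 1 and control 2. The 5 erythroid names came to 71727, 73077 and 112301 CPM in knockout, 80064, 60536 and 27247 CPM in transgene, and 52333, 48716 and 21414 CPM in control libraries. The 5 leukocyte names came to 780, 560 and 1420 CPM in knockout, 606, 1297 and 566 CPM in transgene, and 481, 883 and 507 CPM in control libraries. Knockout 3 was the highest of the 9 in both sums, and transgene 2 was second in the leukocyte sum, where control 1 was the lowest. A sum rests mostly on the most abundant names. With each erythroid name weighted equally, on centred log2 CPM, the mean was 1.09 in knockout 3 and 0.81 in transgene 2. That mean was 0.16 in transgene 1, -0.90 in control 1 and -1.16 in control 3. The 5 endocrine and liver names came to 1108 to 11181 CPM in knockout, 4925 to 21600 CPM in transgene and 1182 to 12197 CPM in control libraries. Their part in the neural values was not tested. In whole kidneys, fewer cells of a type and less RNA per cell cannot be told apart.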

How the data were processed

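Small RNA was sequenced from 9 whole-kidney libraries at embryonic day 16.5 (3 knockout, 3 transgene, 3 control), grouped by title and genotype. The authors deposited whole-number read counts per small RNA name; per the submitters' processing notes, CASAVA 1.8, Bowtie2 and build mm10 were used, in roles not stated. How reads matching several names were counted is not stated there. Counts of known mouse miRNAs entered edgeR 4.0.16 under R 4.3.3 (quasi-likelihood F test, TMM, filterByExpr, group as a factor over all 9 libraries, Benjamini-Hochberg adjustment over 955 names, threshold 0.05). The fit was tried on simulated counts with the same spread for all names. That trial does not cover names as variable as miR-124-3p and miR-137-3p. TMM factors were 0.882 to 1.13 and the common biological coefficient of variation was 0.489. Log2 CPM used a prior count of 2 and arm ratios a pseudocount of 1. DESeq2 1.42.0, other scalings and filters, left-out libraries and a replicate block were alternatives. By a fixed rule the text names the 5 members and the 3 nearest patterns per member and may name list members averaging 10 CPM or more; others named were chosen after their values were seen. Members and lists were chosen with earlier results of these data known.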

Additional observations from a re-analysis of the deposited data

How the results depend on the processing

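No member was called under any of the 17 alternatives in any comparison, and the lowest edgeR or DESeq2 adjusted p among the 255 alternative fold changes was 0.246. Of these, 234 kept their sign and 21 did not. For miR-124-3p, transgene over control was 0.53 with a replicate block and 0.068 on total miRNA counts. For miR-9-5p, transgene over control was 0.051 on all counted reads, 0.026 with only both groups fitted and 0.11 on total miRNA counts. On total counts the median over all tested names was 0.19 in knockout over control and 0.18 in transgene over control. With 1 library left out, log2 fold changes ran as follows. For miR-124-3p they ran from -2.11 to 3.27 in knockout over control, from -1.13 to 2.60 in transgene over control and from -1.98 to 1.56 in knockout over transgene. For miR-137-3p they ran from -1.56 to 3.65, from -0.20 to 2.94 and from -2.26 to 1.50 in the same order. In transgene over control they ran from -0.099 to 0.29 for miR-9-3p and from -0.44 to 0.16 for miR-9-5p. The miR-9 arm ratio in knockout over control ran from -0.77 to -0.0059, and in knockout over transgene it ran from -0.52 to 0.25, positive without knockout 3 or transgene 1. The cause was not tested.

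Deviations of same-numbered libraries from their group means correlated at -0.30 to 0.10 over 9 pairs, beside -0.27 to 0.35 over the 18 other pairs. Of the 9 libraries, 0 correlated best with a library of their own number. With 3 libraries per group, such correlations cannot settle whether libraries were matched. The replicate block left 0 members called in each comparison. Over all miRNAs in knockout against control, edgeR called 0, DESeq2 113, and edgeR without knockout 1 called 48, with 0 members in each.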
